A study of Mus musculus with 25 samples.

Results

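Lung RNA of mice given a phosphonate analog of FTY720 was compared with lung RNA of control mice. The comparison used the 3 arrays titled as the drug control fTyS and the 4 arrays titled as control, 7 of the 25 arrays of a study of radiation injury of the lung and of compounds that resemble sphingosine 1-phosphate (S1P). All mice were female wild-type C57BL/6J, aged 14 to 17 weeks and weighing 20 to 25 g. The fTyS group (n = 3) received (S)-FTY720-phosphonate at 0.1 mg/kg by intraperitoneal injection 2 times a week, without radiation. The control group (n = 4) received phosphate-buffered saline. Other groups of the study served for comparison: SEW-2871 (SEW, n = 3) and FTY720 (FTY, n = 3), both at 0.1 mg/kg by the same route and schedule, and a single thoracic dose of 25 Gy with fTyS (n = 3) or alone (n = 3). The vehicle of the compounds, the route of the saline, the length of dosing and the time of collection are not given in the sources used here. The arrays were Affymetrix mouse arrays read from 6 µg of total RNA each, and every array was 1 mouse.

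S1P is a lipid mediator that circulates in blood and lymph and signals through G protein-coupled receptors. In the lung its receptor S1pr1 tightens the endothelial barrier, and in lymphoid organs the same receptor lets lymphocytes leave for the blood along a gradient of S1P. FTY720 (fingolimod) is phosphorylated in the body and then engages S1P receptors, after which S1pr1 on lymphocytes is internalised. fTyS carries a phosphonate where phosphorylated FTY720 has a phosphate, and phosphatases do not remove it. SEW-2871 is an agonist of S1pr1 that is not built like sphingosine.

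Lungs of mice given fTyS had more RNA of antibody genes, by 2.87 log2 units for Jchain, and of the early response gene Nr4a3. The metalloproteinase gene Adamts9 was called higher on its brightest probe set, while its other probe sets gave 0.21 and -0.32. The genes called lower differed by less than 1 log2 unit, and the glutamate receptor gene Gria3 had the smallest p among them. The S1P receptors and the structural genes of the lung were not called. Values are the deposited signal of a probe set on each array, and fold changes are differences of log2(signal + 16), fTyS minus control, ± SE from limma. Of 12929 genes tested, 23 passed an adjusted p of 0.05 with limma (0.178%), 11 of them higher with fTyS (0.0851%) and 12 lower (0.0928%). Of these, 9 differed at least by a factor of 2, all of them higher. At an unadjusted p of 0.05 the counts were 807 higher and 1135 lower. For the median gene, the 95% interval reached 0.21 log2 units to either side. In all 23 genes the arrays of both groups did not overlap, as was so, over all genes tested, for 4.35% on the higher side and 6.69% on the lower side.

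**Figure D1:**
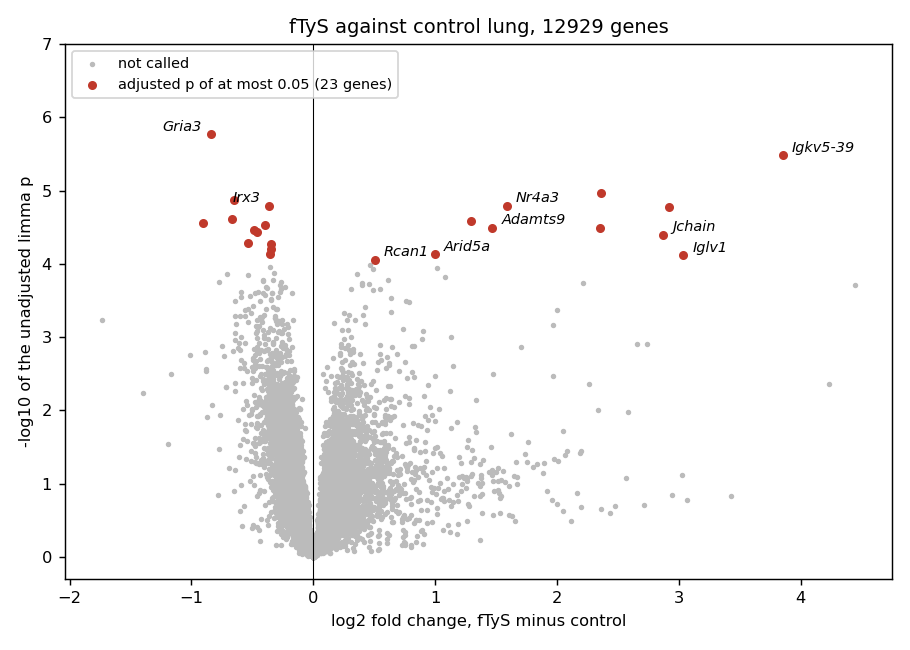
Log2 fold change of fTyS against control on the x axis and the size of the unadjusted limma p on the y axis, on a -log10 scale, for 12929 genes. The 23 called genes are red. They reach 3.85 on the right and -0.90 on the left.

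The 23 calls depended on single arrays. None remained without fTyS replicate 1 or without fTyS replicate 2 (limma, 1475 and 1178 genes at an unadjusted p under 0.05), and 1 without control replicate 3. There were 54 without control replicate 1, 68 without control replicate 4 and 85 without fTyS replicate 3, of which 19, 22 and 20 were among the 23. With the replicate number as a block the count was 43 in a fit of 25 arrays, 16 of them among the 23, and 2 in a fit of the 7 arrays alone. Centring each array on its median left 9 calls, 8 higher and 1 lower, against 11 higher and 12 lower as deposited.

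Defining markers of lung were bright on every array. Sftpc, the surfactant protein C gene of alveolar type 2 cells, had signals of 10722, 9804 and 10465 in fTyS lungs, against 10233, 10407, 10825 and 9893 in control lungs. Scgb1a1 of airway club cells and Ager of alveolar type 1 cells had log2 fold changes of -0.03 ± 0.03 and -0.02 ± 0.05. Markers of tissue next to the lung varied between the mice. The mean of 16 skeletal muscle genes was 7.41, 12.32 and 10.22 log2 units on fTyS arrays 1 to 3, against 6.83, 11.21, 6.95 and 6.58 on control arrays 1 to 4. The mean of 10 adipocyte genes was 11.98, 11.68 and 9.73 on the fTyS arrays, against 9.18, 10.88, 9.75 and 9.08 on the control arrays. None of these 26 genes was called, and the median fold changes were 2.11 and 1.42, against 0.00494 over all genes tested. With both means as covariates 14 genes were called, 7 of them among the 23. The ratio of the 3 prime to the 5 prime Gapdh probe set, a sign of RNA length, was 0.028, 0.187 and -0.012 log2 units in fTyS and 0.344, 0.075, 0.353 and 0.098 in control. With that ratio as a covariate no gene was called (limma, 1390 genes at an unadjusted p under 0.05). Control replicate 4 had a mean of 10.10 over 22 targets of p53, against 9.97 to 10.16 on the 12 irradiated arrays. The other 12 unirradiated arrays had 9.48 to 9.71. Values without control replicate 4 are therefore given for Jchain, Nr4a3, Yeats2 and the p53 list, and Yeats2 lost its call. The part of these differences in the calls below was not tested beyond the counts given.

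Genes of antibodies made up 7 of the 11 increases, and 3 of the 7 had a control mean below the filter on low values. In bulk lung RNA, fewer or more cells of a type cannot be told apart from less or more RNA per cell. Jchain encodes the joining chain that links units of IgA and IgM and is made by antibody-secreting cells. It had signals of 5232, 5044 and 4428 in fTyS lungs, against 566, 805, 616 and 651 in control lungs. All fTyS values were above all control values, and both groups were tight. The fold change was 2.87 ± 0.55 log2 units (adjusted p = 0.0327), and it was 2.87 as well without control replicate 4 (adjusted p = 0.0413). With the muscle and adipocyte means as covariates it was 2.32 (adjusted p = 0.0765).

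Variable segments of the kappa light chain followed. Igkv5-39 had signals of 395, 587 and 405 in fTyS lungs, against 22.6, 15.4, 11.2 and 18.1 in control lungs, a fold change of 3.85 ± 0.60 (adjusted p = 0.0213). The control signals were near the pseudocount of 16, and the control mean of 5.02 log2 units was below the filter on low values at 6.49, so this fold change depends on the pseudocount. Igkv9-120 had 554, 723 and 194 in fTyS lungs, against 28.1, 54.8, 26.7 and 74.0 in control lungs, and rose by 2.92 ± 0.52 (adjusted p = 0.0309). Its lowest fTyS value, on replicate 3, was still above the highest control value. Igkv8-30 had 5801, 4479 and 4548 in fTyS lungs, against 738, 822, 1106 and 1176 in control lungs (2.36 ± 0.40, adjusted p = 0.0309). Igkv6-14 had 245, 353 and 119.8 in fTyS lungs, against 58.9, 20.0, 13.7 and 40.5 in control lungs (2.35 ± 0.44, adjusted p = 0.0322), again with fTyS replicate 3 lowest among the treated mice. The control means of Igkv9-120 and Igkv6-14, 5.88 and 5.53, were below the filter too. These 3 segments passed the filter only through groups where they were high, fTyS among them, which favours a difference. The means over all arrays of Igkv5-39 and Igkv6-14, 6.64 and 6.51, were barely above the filter, and that of Igkv9-120 was 7.35. Their fold changes and calls are therefore a description. No other called gene had an fTyS or control mean below the filter.

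The lambda segment Iglv1 had signals of 1521, 815 and 898 in fTyS lungs, against 107, 122, 91.2 and 133 in control lungs, and rose by 3.04 ± 0.61 (adjusted p = 0.0453). A probe set for the kappa chain as a whole, Igk, had 365, 289.6 and 278 in fTyS lungs, against 102, 117, 108 and 143 in control lungs (1.29 ± 0.24, adjusted p = 0.0322). Neither gene's groups overlapped. Antibody segments form large families of similar sequence and several of these probe sets carry the suffix of shared probes, so that the segment named on the array is uncertain. Other probe sets of Iglv1 gave 0.21 and 1.19, and those of Igkv9-120 gave 0.20 and 0.36 at dimmer levels, while those of Igk gave 2.40, 1.99 and 0.76.

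Of 19 antibody gene symbols on the array, 8 were below the filter and 11 were tested. All 11 had fold changes above 0 and 6 were called, but 4 of them passed the filter with a control mean below it, so these counts are a description of the symbols that passed. Of the 7 whose control mean was above the filter, 3 were called, and their median fold change was 2.00. Among those not called, Ighm, the heavy chain of IgM, had signals of 7380.4, 6284 and 4273 in fTyS lungs, against 922, 1281, 1421 and 1424 in control lungs (2.21 ± 0.48, adjusted p = 0.0557). Igha, the heavy chain of IgA, had 3549, 1611 and 5807 in fTyS lungs, against 740.2, 605, 758 and 1160.0 in control lungs (2.00 ± 0.47, adjusted p = 0.0701). Fold changes of these classes missed the threshold although their groups did not overlap. Ighv14-2 had a fold change of 0.08, with overlapping groups.

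Of the wider list of 13 plasma cell and immunoglobulin genes, 2 were called higher (Jchain and Iglv1) and none lower, and the list median was 0.83. Its mean level was 10.01, 9.82 and 9.66 on the fTyS arrays, against 8.67, 8.72, 8.81 and 8.97 on the control arrays, with no overlap. Members of this and the following lists that were not called are named as examples chosen after their values were seen. Mzb1, a chaperone of antibody assembly, had 854, 736 and 425 in fTyS lungs, against 234, 278, 340.2 and 302 in control lungs (1.13 ± 0.29, adjusted p = 0.0946). The transcription factor Irf4 had a fold change of 0.83 ± 0.22, with fTyS replicate 3 inside the control range. Members below 0 included Xbp1 with -0.05 ± 0.07, the surface proteoglycan Sdc1 with -0.18 ± 0.04 and the repressor Prdm1 with -0.48 ± 0.13 (adjusted p = 0.74, 0.0557 and 0.109).

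Lymphocyte lists had no called member. Of 15 B cell genes 13 were above 0 and the median was 0.32. The B cell mean was 8.97, 8.92 and 8.01 on the fTyS arrays, against 7.95, 8.22, 8.59 and 8.51 on the control arrays, so that fTyS replicate 3 lay within the control range. Ms4a1, the CD20 gene of B cells, had signals of 1881, 1823 and 644 in fTyS lungs, against 691, 601, 701 and 955 in control lungs (0.83 ± 0.42). Without fTyS replicate 3 the B cell median was 0.69, again with no call. Of 10 T cell genes none was called, with a median of 0.13, and Cd3g of the T cell receptor complex had a fold change of 0.62 ± 0.39. Of 11 genes of natural killer and cytotoxic cells none was called, and the median was -0.09.

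**Figure D2:**
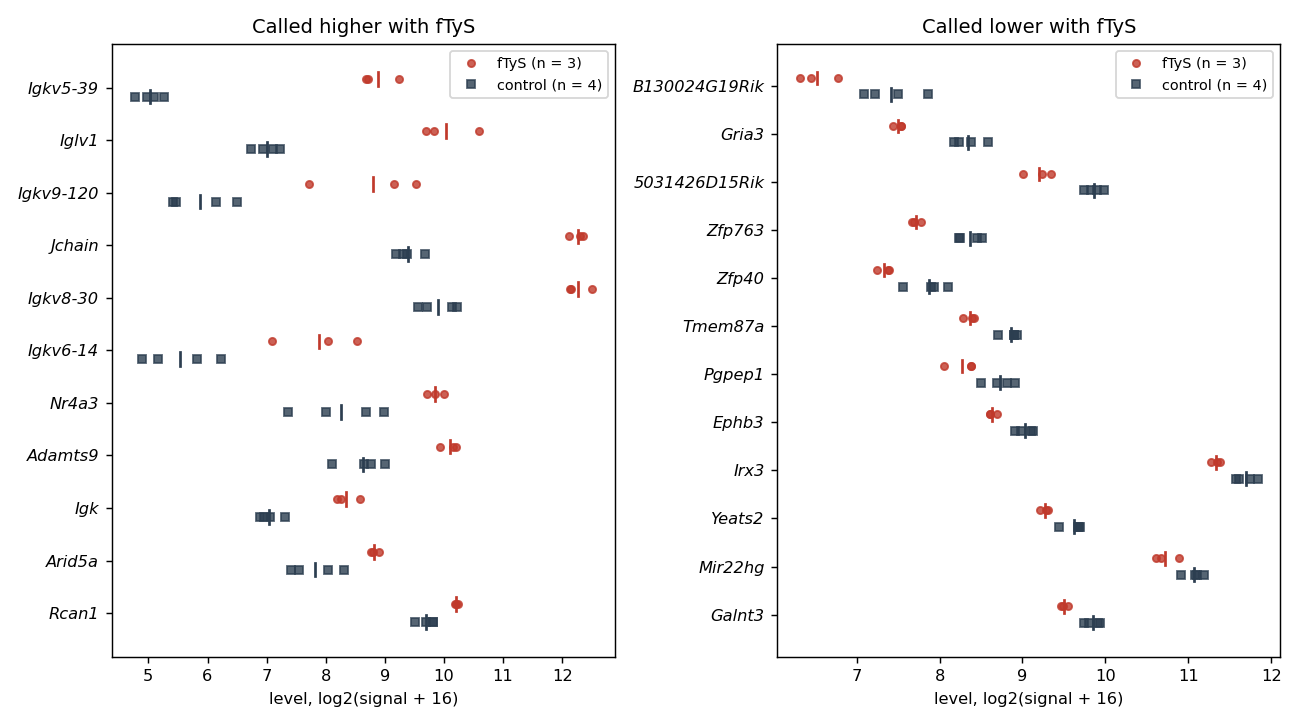
Level on each array, as log2(signal + 16) on the x axis, of the 11 genes called higher (left panel) and the 12 called lower (right panel). Red circles are the 3 fTyS arrays, dark squares below them the 4 control arrays, and short vertical lines are group means. No circle overlaps a square in any row.

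The other 4 genes called higher have other roles. Nr4a3 encodes an orphan nuclear receptor that is induced within minutes to hours of many stimuli. It had signals of 1004, 819 and 905 in fTyS lungs, against 395, 241, 149 and 489 in control lungs. The 3 treated mice were close together and the controls spread widely, with control replicate 4 nearest to the treated mice. The fold change was 1.59 ± 0.28 (adjusted p = 0.0309), and 1.83 without control replicate 4 (adjusted p = 0.00806). Dimmer probe sets of Nr4a3 gave 0.09 and -0.08.

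Adamts9, a secreted metalloproteinase that cleaves matrix proteoglycans, had signals of 1166, 964 and 1124 in fTyS lungs, against 420.0, 495, 260.4 and 383 in control lungs. All treated mice exceeded all controls, and the fold change was 1.47 ± 0.28 (adjusted p = 0.0322). The probe sets of Adamts9 disagreed, since the other pair gave 0.21 and -0.32, and with the mean of all its probe sets the fold change was 0.45. Arid5a, an RNA-binding protein that stabilises transcripts such as that of interleukin 6, had 422, 427 and 463 in fTyS lungs, against 171, 246, 155 and 302 in control lungs (0.997 ± 0.20, adjusted p = 0.0453). Rcan1, an inhibitor of the phosphatase calcineurin whose own transcription calcineurin induces, had 1149, 1193 and 1166 in fTyS lungs, against 809, 880.5, 713 and 879 in control lungs (0.51 ± 0.10, adjusted p = 0.0495). A second, dimmer probe set of Rcan1 gave 0.13.

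Nr4a3 was the 1 called member of 17 immediate early and Nr4a genes, whose median was 0.03. The related receptors Nr4a2 and Nr4a1 had fold changes of 0.81 ± 0.24 and 0.12 ± 0.29 (adjusted p = 0.137 and 0.857). Nr4a2 had signals of 962, 848 and 692 in fTyS lungs, against 448, 390.1, 423 and 628 in control lungs, without overlap. Atf3, a stress-induced transcription factor, had 1405, 1142 and 1048 in fTyS lungs, against 417, 531, 389 and 962 in control lungs, also without overlap (1.12 ± 0.36, adjusted p = 0.165). Of the 17 genes 10 were above 0. The lowest fold changes were those of Egr1 (-0.64 ± 0.33), Fos (-0.56 ± 0.26) and Junb (-0.38 ± 0.14), with none called and with overlapping groups in each. Fold changes of the list lay between -0.64 and 1.59.

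Nr4a3, Rcan1 and other early genes are known targets of factors that bind the cyclic AMP response element (CRE), so the 250 bases before the start of each called gene were searched. RefSeq promoters (GRCm38.p6) were found for 14 of the 23 called genes, 5 higher and 9 lower. Rcan1 has 2 of them, which makes 6 promoters of genes called higher. The core of the CRE, TGACG, on either strand, stood in 4 of 6 promoters of genes called higher and in 4 of 9 of genes called lower, and in 17.8% of 32851 promoters of the same length. The 30-base windows that hold the cores of the genes called higher are shown 5′ to 3′ on the strand of the gene, with the cores in capitals, at chr5:88528081-88528110 (minus strand), chr4:48045070-48045099 (plus strand), chr6:92943736-92943765 (minus strand) and chr16:92400235-92400264 (minus strand), in the order of the lines.
Jchain: gagtatatgtagtTGACGaagtagagagct
Nr4a3: agggTGACGtagcgtcccatgtCGTCAcat
Adamts9: cacctcggggaggTGACGcggacggccacc
Rcan1: gactaaggtgtTGACGTCAcctctttccag
The window of Rcan1 holds TGACGTCA, which is the full palindromic CRE, found in 1.55% of all promoters. The other promoter of Rcan1, at chr16:92466120-92466419 (minus strand), holds no core. The promoter of Nr4a3 had 4 cores in 250 bases, of which 2 are in the window shown. In all 8 motifs were searched on both strands, and the core is part of the full one. Of the 6 promoters of genes called higher and the 9 of genes called lower, the NFAT core GGAAA stood in 3 and 4 (55.6% of all promoters), the NBRE AAAGGTCA in 1 and 0 (1.34%), the heat shock unit pair GAANNTTC in 1 and 0 (6.69%) and the E-box CACGTG in 1 and 0 (6.02%). The octamer ATGCAAAT (1.60%) and the D-box TTATGTAA (0.819%) stood in none of either group. A match describes letters in a window and is no evidence of binding.

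The genes that fell did so by less than a factor of 2. Gria3, a subunit of AMPA-type glutamate receptors, had signals of 169, 157 and 169.8 in fTyS lungs, against 316, 284, 274 and 368 in control lungs. No treated value came near the control range, and the fold change of -0.84 ± 0.13 had the smallest p of all genes (adjusted p = 0.0213). A second probe set of Gria3 gave -0.64. It was also the 1 gene called without control replicate 3.

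Among regulators of transcription, Irx3, a homeobox factor of lung and other epithelia, had 2455, 2646 and 2587 in fTyS lungs, against 3125, 3418, 3639.8 and 3028 in control lungs (-0.36 ± 0.06, adjusted p = 0.0309). The zinc finger genes Zfp763 and Zfp40 had fold changes of -0.65 ± 0.11 and -0.53 ± 0.10 (adjusted p = 0.0309 and 0.0388). All 4 probe sets of Zfp40 were below 0, between -0.85 and -0.50, whereas a dimmer probe set of Zfp763 gave 0.28. Yeats2, a subunit of a histone acetyltransferase complex, had 618, 576 and 608 in fTyS lungs, against 678, 795, 814 and 806 in control lungs (-0.35 ± 0.07, adjusted p = 0.0453). Its control replicate 1 stood apart from the other controls toward the treated mice. Without control replicate 4 the fold change of Yeats2 was -0.33 and missed the threshold (limma, adjusted p = 0.0576).

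Ephb3, a receptor tyrosine kinase for ephrins, had 375, 373 and 398 in fTyS lungs, against 488, 533, 544 and 466 in control lungs (-0.39 ± 0.07, adjusted p = 0.0322). Galnt3, an enzyme that starts mucin-type O-glycosylation, had 689.9, 702 and 733 in fTyS lungs, against 962, 949.9, 842 and 873 in control lungs (-0.35 ± 0.07, adjusted p = 0.0422), while dim probe sets of Galnt3 gave 0.35 and -0.14. The Golgi membrane protein gene Tmem87a and the peptidase gene Pgpep1 had fold changes of -0.49 ± 0.09 and -0.46 ± 0.09 (adjusted p = 0.0322 for each). The spread within groups was small against these differences, since the SDs were at most 0.19 log2 units in these 4 genes. The RIKEN transcripts B130024G19Rik and 5031426D15Rik, with no role given here, had fold changes of -0.90 ± 0.17 and -0.67 ± 0.12.

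Mir22hg, the host transcript of microRNA miR-22, had signals of 1548, 1608 and 1882 in fTyS lungs, against 1906, 2179.6, 2328 and 2151 in control lungs. The highest treated value, on replicate 3, lay just under the lowest control value, and the fold change was -0.35 ± 0.07 (adjusted p = 0.0388). The 2 mature arms inside the host gene, chromosome 11, bases 75461539 to 75466690 (GRCm38.p6, plus strand), are shown from RefSeq, 5′ to 3′, with the seed at bases 2 to 8 in capitals, because the host was measured and the mature microRNA was not.
mmu-miR-22-5p: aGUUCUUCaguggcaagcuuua
mmu-miR-22-3p: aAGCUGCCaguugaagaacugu

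The genes through which S1P signals were set side by side next. None of the 4 S1P receptors tested and none of 13 genes of S1P handling was called, and the medians were -0.08 and -0.04. S1pr1, the receptor of endothelium and lymphocytes, had signals of 1267, 1113 and 1952 in fTyS lungs, against 1704, 802, 858 and 1279 in control lungs. Both groups spread over a wide range and overlapped (0.34 ± 0.26, adjusted p = 0.534), which leaves a 95% half-width of 0.55. S1pr3, found on endothelium and smooth muscle, had 1804, 1611 and 1985 in fTyS lungs, against 1920.5, 2355, 2609 and 2709.5 in control lungs (-0.40 ± 0.10, adjusted p = 0.0748), with control replicate 1 inside the treated range. It passed the threshold in 3 of 22 alternatives (limma). These were without control replicate 1 (-0.51, adjusted p = 0.0133), without fTyS replicate 3 (-0.48, adjusted p = 0.0481) and with array weights (-0.41, adjusted p = 0.00157). With the mean of all its probe sets S1pr3 had -0.22 (adjusted p = 0.378), and its dimmer probe sets gave -0.36 and 0.11. S1pr2 had 337, 329.9 and 346 in fTyS lungs, against 439, 370.3, 389 and 412 in control lungs, without overlap but with adjusted p = 0.307 (-0.24 ± 0.11). S1pr4 of leukocytes had 0.08 ± 0.16, and S1pr5 was below the filter on low values.

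The kinases that make S1P, Sphk1 and Sphk2, had fold changes of -0.15 ± 0.17 and -0.01 ± 0.08. A dimmer probe set of Sphk2 gave -0.65, so the probe sets of Sphk2 disagreed. Sphk1 had signals of 484, 469 and 633 in fTyS lungs, against 894, 469.8, 535 and 511 in control lungs. Control replicate 1 stood above the rest, and the fold change of Sphk1 was 0.05 without it. Of the enzymes that remove S1P, the lyase Sgpl1 had 0.14 ± 0.10 and the phosphatases Sgpp1 and Sgpp2 had -0.17 ± 0.06 and -0.59 ± 0.13 (adjusted p = 0.474, 0.176 and 0.0557). Sgpp2 had signals of 587, 641 and 693 in fTyS lungs, against 1042, 896, 1029 and 926 in control lungs, so that its groups did not overlap although it missed the threshold. Spns2, the exporter of S1P from endothelium, had -0.12 ± 0.10, and Plpp3, an ectophosphatase of lipid phosphates, -0.07 ± 0.06. Of 21 enzymes of ceramide and sphingolipid metabolism none was called, and fold changes ran from -0.22 to 0.17.

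Genes of the cells that build the lung had medians near 0. Of 20 endothelial genes none was called (median -0.03), and the junction and receptor genes Cdh5 and Kdr had -0.02 ± 0.07 and -0.03 ± 0.08. Of 14 barrier junction genes none was called (median -0.07) and 3 were above 0, with fold changes from -0.51 to 0.22. Cldn5, the claudin of endothelial tight junctions, had 0.00 ± 0.13. Alveolar type 1 genes had a median of -0.02 over 10 genes, with 3 above 0. Surfactant and alveolar type 2 genes had a median of -0.13 over 11, with 1 above 0, and neither list had a call. The mean of the type 2 list was 12.07, 11.92 and 12.08 on the fTyS arrays, against 12.22, 12.09, 12.29 and 12.13 on the control arrays, a narrow gap without overlap. Fibroblast and collagen matrix genes had a median of -0.07 over 18 genes and TGF-beta ligands, receptors and feedback genes one of -0.07 over 15, with no call.

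**Figure D3:**
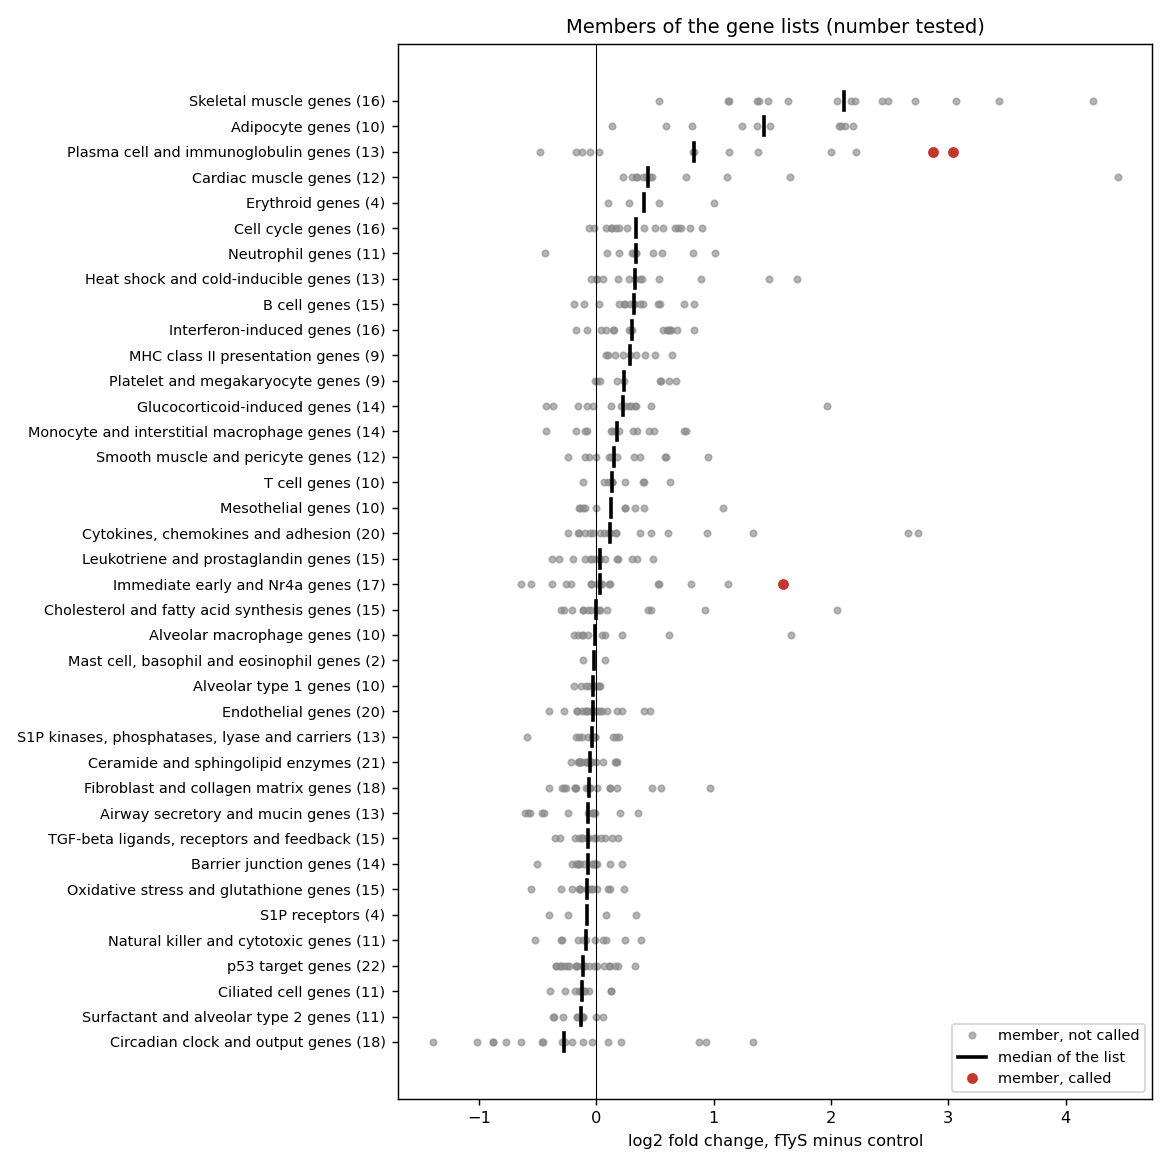
Log2 fold change of fTyS against control for each tested member of 38 gene lists, 1 list a row, with the number of members tested in parentheses. Black bars are list medians and red points are called members, which appear in 2 lists.

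Several lists had no called member but means that did not overlap between the groups. Of 13 heat shock and cold-inducible genes 11 were above 0, with a median of 0.33. Hspa1a, an inducible chaperone, had signals of 1801, 1719 and 2121 in fTyS lungs, against 1283, 660.0, 312 and 373 in control lungs (1.71 ± 0.46, adjusted p = 0.104). Its co-chaperone Dnajb1 had 2277, 2194 and 2209 in fTyS lungs, against 1574, 1560.2, 859 and 959 in control lungs (0.89 ± 0.23, adjusted p = 0.0957). The treated mice were alike in both genes, while control replicate 1 was near them and control replicate 3 was lowest.

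Genes of the circadian clock, a feedback loop of transcription that runs over the day, spread to both sides. Of 18 genes 5 were above 0 and the median was -0.28. Dbp, an output factor, had signals of 618, 567 and 1356 in fTyS lungs, against 1129, 3200.1, 3321 and 1562 in control lungs (-1.40 ± 0.45, adjusted p = 0.168), and Per3, a repressor of the loop, had -1.01 ± 0.28 (adjusted p = 0.107). Arntl, the activator of the loop, had 467, 543 and 267 in fTyS lungs, against 377, 114, 157 and 260.1 in control lungs (0.93 ± 0.36), and Nfil3, which peaks opposite to Dbp, had 1.33 ± 0.45. Control replicates 1 and 4 lay near or within the treated range in these genes. The time of day of collection is not given and its part was not tested.

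Of 20 cytokine, chemokine and adhesion genes none was called, with a median of 0.11. Cxcl13, a chemokine that attracts B cells, had signals of 1609.8, 2373 and 681 in fTyS lungs, against 228, 265, 165 and 178 in control lungs (2.65 ± 0.70, adjusted p = 0.102). Cxcl9, induced by interferon gamma, had 214, 92.6 and 764 in fTyS lungs, against 35.05, 20.3, 18.6 and 25.1 in control lungs (2.74 ± 0.73, adjusted p = 0.102). The control mean of Cxcl9, 5.33, was below the filter, so it was tested because of arrays where it was high, those of fTyS among them. Its fold change depends on the pseudocount. Neither gene's groups overlapped, and fTyS replicate 3 had the lowest treated value of Cxcl13 and the highest of Cxcl9.

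That array also stood apart in interferon-induced genes. Interferons induce these genes in many cell types as a defence against viruses. The mean of 16 such genes was 9.44, 9.30 and 10.45 on fTyS arrays 1 to 3, against 9.35, 9.25, 9.44 and 9.47 on control arrays 1 to 4. None of the 16 was called, and the median of 0.30 became -0.03 without fTyS replicate 3. All 9 genes of MHC class II presentation were above 0, with a median of 0.29, none called, and a median of 0.20 without fTyS replicate 3. H2-DMa, which helps to load peptides, had 1129, 797 and 1393 in fTyS lungs, against 701, 551, 709 and 806 in control lungs (0.64 ± 0.15, adjusted p = 0.0734). Cell cycle genes had a median of 0.34 over 16 genes, with no call, and Mki67 had a fold change of 0.72 ± 0.44. Neutrophil genes had a median of 0.33 over 11, and p53 targets one of -0.11 over 22, again with no call. The p53 median was -0.03 without control replicate 4.

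**Figure D4:**
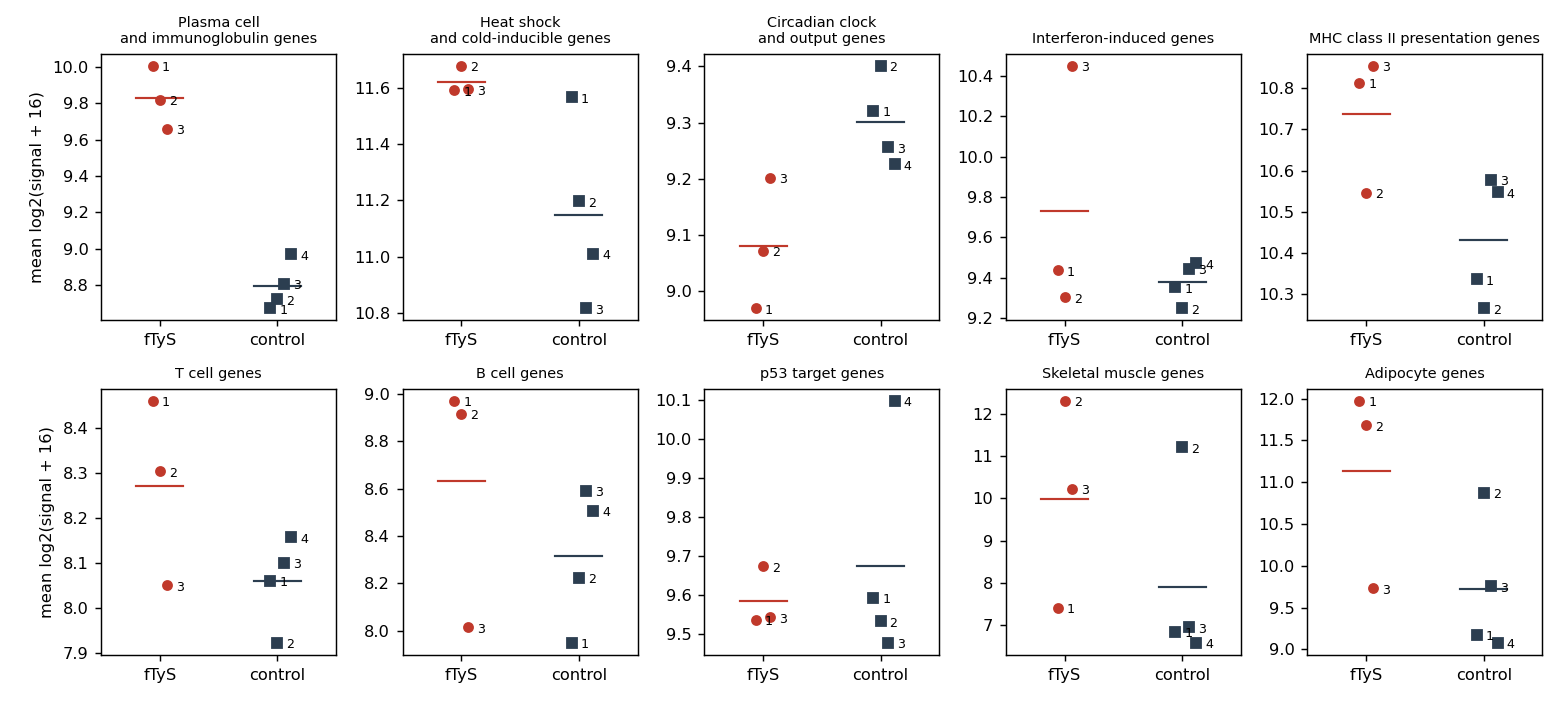
Mean log2(signal + 16) of the tested members of 10 gene lists on each array, fTyS on the left (red circles) and control on the right (dark squares), with the replicate number beside each point and a line at the group mean. The y axis differs between panels, and the groups do not overlap in the immunoglobulin, heat shock and clock panels.

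The compound was then set beside the other S1P receptor ligands, given at the same dose and schedule. In all 2 pairs were compared, with p-values adjusted over the 12929 genes of each. Between fTyS and FTY, which differ in the phosphonate that replaces the phosphate formed in the body, no gene was called with limma (0%; 769 genes at an unadjusted p under 0.05, 556 higher and 213 lower with fTyS). The smallest adjusted p, 0.0697, was that of Pld4, an exonuclease of the phospholipase D family in myeloid cells. Pld4 averaged 8.97 ± 0.07 log2 units with fTyS and 8.28 ± 0.05 with FTY (SD, n = 3 each), a difference of 0.70 ± 0.11. Adgre4, a myeloid adhesion receptor, and Fgd2, an exchange factor of antigen-presenting cells, followed with 0.98 ± 0.21 and 0.47 ± 0.10 (adjusted p = 0.48 for both). The difference of Jchain was 0.41 with a 95% half-width of 1.22, and that of Gria3 -0.09 with 0.28, and these intervals do not show that the responses are alike.

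Between fTyS and SEW, 200 genes were called (1.55%), 165 higher with fTyS (1.28%) and 35 lower (0.271%). The count was 10 without fTyS replicate 1 and 3 without SEW replicate 1, and 0 with the replicate number as a block in a fit of these arrays alone (limma). Relative to SEW, the largest decreases were in genes that glucocorticoids induce, Fkbp5 (-1.98 ± 0.43, adjusted p = 0.0248) and Zbtb16 (-1.83 ± 0.44, adjusted p = 0.0404), followed by Fam107a (-1.76), Map3k6 (-1.71) and Klhl29 (-1.07). Fkbp5, a chaperone of the glucocorticoid receptor, averaged 8.47 ± 0.13 with fTyS, 10.45 ± 0.14 with SEW and 8.54 ± 0.85 in control (SD). The large SD of the control came from replicate 1, since the control signals were 846, 304, 199 and 309.9. Relative to SEW, the largest increases were in Adgre4 (1.22 ± 0.21, adjusted p = 0.0111), the kinase Map2k6 (1.16), the cold-inducible RNA-binding protein Cirbp (1.08), the peptide transporter of antigen presentation Tap1 (1.07) and Cttnbp2 (1.05). These are differences from SEW and not from control. As fTyS minus control, Cirbp had -0.001 and Map3k6 0.02, while Adgre4 had 0.60 and Klhl29 -0.44, none of them called. Tap1 had 694, 546 and 1636 on fTyS arrays 1 to 3, so replicate 3 led, and without it the difference was 0.61.

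Among the 23 genes, 3 were called between fTyS and SEW, against 1.55% of all genes tested. The 23 were chosen by the same fTyS arrays that enter this comparison, so nothing is read from that count. Gria3 averaged 7.50 ± 0.06 with fTyS and 8.31 ± 0.16 with SEW (SD, n = 3 each), a difference of -0.81 ± 0.13 (adjusted p = 0.00976). Arid5a averaged 8.82 ± 0.07 with fTyS and 7.92 ± 0.12 with SEW (0.90 ± 0.21, adjusted p = 0.0388), and Rcan1 10.21 ± 0.03 and 9.77 ± 0.06 (0.44 ± 0.11, adjusted p = 0.0483). For Adamts9 the difference was 1.10 ± 0.29 (adjusted p = 0.0605). For Jchain it was -0.13 with a 95% half-width of 1.22, and for Nr4a3 0.17 with 0.63, which does not show that the responses are alike.

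Against control the 3 compounds share the same 4 control arrays, and their fold changes are therefore only listed side by side. For Jchain they were 2.872 with fTyS, 3.001 with SEW and 2.459 with FTY, and for Iglv1 3.04, 3.07 and 2.48. Both genes were called with each compound, always against those same control arrays. The fold changes of Igkv5-39, whose control mean was below the filter, were 3.85 with fTyS, 3.52 with SEW and 2.03 with FTY. For Nr4a3 they were 1.59, 1.42 and 1.33 in the same order of compounds, and for Irx3 -0.36, -0.42 and -0.41. Gria3 had -0.84 with fTyS, -0.03 with SEW and -0.75 with FTY, and Adamts9 1.47, 0.37 and 0.96 in that order. Over all genes 23 were called with fTyS, 1888 with SEW (14.6%) and 353 with FTY (2.73%), each against control.

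Whether the same genes moved when the compound was given to irradiated mice was read from other arrays, radiation+fTyS (n = 3) against radiation (n = 3). In that comparison 111 genes were called (0.859%) and none of the 23 was among them. Of the 11 genes called higher without radiation, 7 were above 0 with it (63.6%, against 55.1% of all genes that were above 0 without radiation). Of the 12 called lower, 3 were below 0 (25%, against 47.3% of all genes that were below 0 without radiation). Jchain averaged 10.58 ± 0.94 log2 units with radiation and fTyS and 10.47 ± 0.41 with radiation alone (SD, n = 3 each), a difference of 0.11 ± 0.59. Nr4a3 averaged 8.75 ± 0.46 with radiation and fTyS and 9.42 ± 0.10 with radiation alone, a difference of -0.66 ± 0.30. Gria3 averaged 8.48 ± 0.05 with radiation and fTyS and 8.43 ± 0.25 with radiation alone, a difference of 0.06 ± 0.13. 

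**Figure D5:**
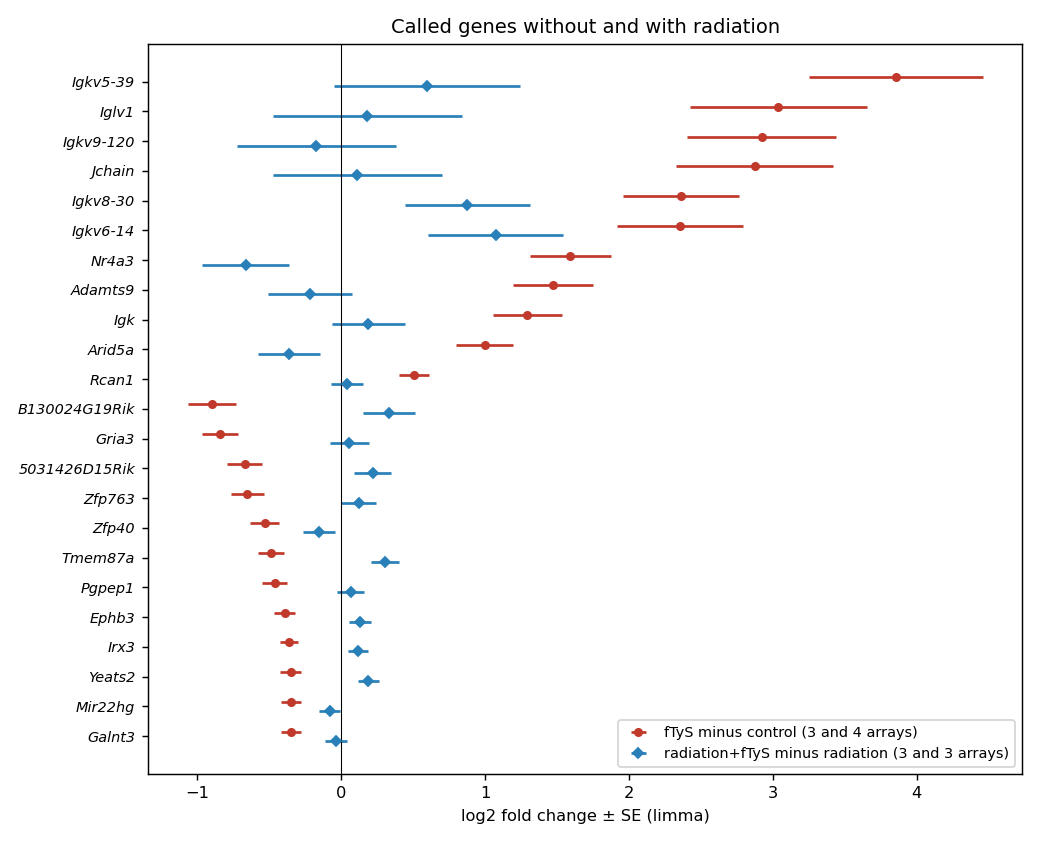
Log2 fold change ± SE on the x axis for the 23 called genes, as fTyS minus control (red circles, 3 and 4 arrays) and as radiation+fTyS minus radiation (blue diamonds, 3 and 3 arrays). The red circles chose the genes, and the blue diamonds lie between -0.66 and 1.07.

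The difference of the compound's effect between irradiated and unirradiated mice was tested as an interaction, which called 175 genes (1.35%), 128 higher (0.990%) and 47 lower (0.364%). After median centring the interaction called 16 genes higher and 29 lower, and after quantile normalization 45 and 49, so the balance of directions turned with the scaling. It passed for 4 of the 11 genes called higher and 9 of the 12 called lower, but it contains the fold change that chose these genes, so nothing is read from those counts. By size, the largest decreases were in Stfa2l1, Igkv9-120 and the myeloid lectin receptors Clec4e and Clec4d. Clec4e, which senses damaged cells and mycobacteria, had an effect of -1.99 ± 0.39 in irradiated mice and 0.83 ± 0.36 in unirradiated mice. Stfa2l1, a stefin A-like gene of neutrophils, had -3.15 ± 0.49 and 0.19 ± 0.46 in the same order. Wfdc17 of myeloid cells had -1.57 ± 0.31 in irradiated and 0.94 ± 0.29 in unirradiated mice. Clec4e and Stfa2l1 had control means of 5.78 and 6.40, below the filter at 6.49, and the mean of Clec4e over all arrays, 6.51, was barely above it. Both genes passed the filter through groups where they were high, which favours a difference, so their values are a description. In the unirradiated mice Clec4e, Stfa2l1 and Wfdc17 were not called, and in the irradiated mice each was called lower. Igkv9-120 was called higher in the unirradiated mice (2.92) and was not called in the irradiated mice (-0.17). The largest increases of the interaction were A330076H08Rik, Itih4, Pacc1, B130024G19Rik and Gm33248. Itih4, of the inter-alpha-trypsin inhibitor family, had 0.88 ± 0.22 in irradiated and -0.42 ± 0.21 in unirradiated mice, and Pacc1, a proton-activated chloride channel, 0.50 ± 0.21 and -0.75 ± 0.20. With only the 13 arrays of these 4 groups in the fit the interaction called 3 genes.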

How the data were processed

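The deposited series table holds 1 intensity per probe set and array on a linear scale, made by the authors with GCOS, per the submitters' processing notes. The version, the summary method and the scaling are not given in the sources used here, and array medians lay between 118.33 and 129.58. Of 45101 probe sets, 64 were controls of the manufacturer, 34945 carried 1 gene symbol, 932 several and 9160 none. The probe set of highest mean stood for each of 18193 genes. The filter was the 40th percentile of the means of all 45101 probe sets, 6.49 on the scale of log2(intensity + 16). Genes with a mean above it were tested, 12929 in all.

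Group means of 8 groups were fitted over all 25 arrays with limma 3.58.1 in R 4.3.3 (17 residual degrees of freedom, trended eBayes, two-sided tests, Benjamini-Hochberg adjustment over the genes of a comparison, called at an adjusted p of 0.05). Tables and sequences were handled in Python 3.11.15. The tests were also run on simulated data with independent noise for each gene and array. That setting has no outlying array and no variation shared between genes, so it does not bear on how the calls depend on single arrays. Members and gene lists were chosen with earlier results of these data known. Of 596 entries in 38 lists, 547 were matched to a gene tested or below the filter. Named genes were the called genes without overlap of groups (up to 12 in each direction), genes of S1P signalling and called list members, and for other comparisons the 5 largest in each direction, or the 3 of smallest p where none was called. The number of arrays limits the precision.

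Replicate numbers come from the titles. Deviations of same-numbered fTyS and control arrays from their group means correlated at 0.112, 0.781 and 0.118. Crossed pairs reached 0.426 and 0.367, so these values do not settle whether the numbers mark pairs. The main fit did not pair the arrays. The replicate number was a block in alternatives only, where control replicate 4 had no partner. Alternatives changed the scaling, the pseudocount (1 and 64), the filter, the probe set rule, the variance model, covariates, the arrays in the fit, the replicate block and the arrays left out.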

Additional observations from a re-analysis of the deposited data

Results flagged for a closer look

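Among 71 sets of 4 control values tested, 4 had a value far from the other 3, where chance gives about 1 in 20. The control level of Tmem87a on replicate 4 was 8.70 log2 units, the lowest, toward the treated mice, and that of Yeats2 on replicate 1 was 9.44, the lowest. The skeletal muscle mean on control replicate 2 was 11.21, above the other controls, and the mean of TGF-beta genes on the same array was 10.44, below the other controls.

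The interaction with radiation passed the threshold for 23 named genes (limma, adjusted over all genes). Of these, 13 were chosen by their fold change without radiation, which the interaction contains, and 8 others by the size of the interaction, so the values are a description and nothing is read from their number or signs. As the effect in irradiated minus that in unirradiated mice on the log2 scale, they were -3.09 for Igkv9-120, -2.25 for Nr4a3, -1.69 for Adamts9 and -1.36 for Arid5a among genes called higher. Among genes called lower they were 1.23 for B130024G19Rik, 0.90 for Gria3, 0.89 for 5031426D15Rik, 0.79 for Tmem87a, 0.78 for Zfp763, 0.54 for Yeats2, 0.53 for Pgpep1, 0.52 for Ephb3 and 0.48 for Irx3. S1pr3, which was not called, had a difference of 0.61 (adjusted p = 0.0388), from 0.21 in irradiated and -0.40 in unirradiated mice, and Pld4 had -0.75.

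Genes named by the size of the interaction had differences of -3.34 for Stfa2l1, -2.82 for Clec4e, -2.69 for Clec4d and -2.51 for Wfdc17, which myeloid cells express. Those above 0 had 1.51 for A330076H08Rik, 1.30 for Itih4, 1.25 for Pacc1 and 1.15 for Gm33248.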

How the results depend on the processing

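The 23 genes called between fTyS and control became 1953 with array weights, 56 with the muscle and adipocyte means as covariates and control replicate 4 left out (chosen after seeing the data), 43 and 2 with the replicate block in 25 and 7 arrays, 14 with those covariates alone, 9 with median centring, 6 with only the arrays compared, 0 with the Gapdh covariate (limma, 1390 genes at an unadjusted p under 0.05) and 0 to 85 with 1 array left out. The 200 genes called between fTyS and SEW became 4475 with array weights, 580 with the covariates and 647 also without control replicate 4, 119 with median centring, 115 with the Gapdh covariate, 75 with quantile normalization, 67 with mean probe sets, 19 with only the arrays compared, 0 with the replicate block in those arrays (limma, 1607 at an unadjusted p under 0.05) and 3 to 304 with 1 array left out. The count of 0 between fTyS and FTY became 827 with array weights and was 0 in the other settings (limma, 769 at an unadjusted p under 0.05 as reported), also with 1 array left out. The 175 interaction calls became 2076 with array weights, 402 with the covariates and 470 also without control replicate 4, 94 with quantile normalization, 45 with median centring, 20 with the replicate block and 3 without it in the arrays compared, and 31 to 229 with 1 array left out. The cause of these changes was not tested.

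Direction changed for 4 uncalled genes of S1P signalling. S1pr4 was -0.0669 without control replicate 2 and between -0.0669 and 0.195 with 1 array left out. Sgpl1 was -0.0431 with mean probe sets. Sphk1 was 0.0298 with the muscle and adipocyte covariates, and between -0.282 and 0.0518 with 1 array left out. Sphk2 was 0.0557 with the Gapdh covariate, 0.0446 with the muscle and adipocyte covariates, 0.0650 also without control replicate 4, 0.0234 with the replicate block in either fit, and between -0.0844 and 0.0362 with 1 array left out. The lowest value of Sphk2 under any alternative was -0.331, and its smallest adjusted p under any alternative was 0.0589 (limma). Of the other values of single genes and lists under an alternative, 1679 counted as the same. For a gene this means the same direction and side of the threshold. For a list it means a median that moved by less than the SD within groups, so its sign could change. With the muscle and adipocyte covariates the median of the S1P receptors went from -0.08 to 0.06, and that of S1P handling from -0.04 to 0.04. Of the rest, 366 gene values lost the call, 6 gained it and 28 list medians moved. The mast cell list has no gene above the 60th percentile filter.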

Other observations

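Lists of further cell types and pathways had no called member, and the genes named here were chosen after their values were seen. Of 14 monocyte and interstitial macrophage genes 10 were above 0, with a median of 0.17, and C1qb, a complement component, had 1011, 1378 and 1144 in fTyS lungs, against 697, 575, 592 and 899 in control lungs (0.77 ± 0.23, adjusted p = 0.144), without overlap. Alveolar macrophage genes had a median of -0.01 over 10 genes. Cell cycle genes without overlap included Ube2c, a ubiquitin-conjugating enzyme of mitosis, with 154, 244 and 159.8 in fTyS lungs, against 99.7, 122, 66.8 and 80.2 in control lungs (0.90 ± 0.47). Platelet genes had a median of 0.24 over 9 genes, erythroid genes 0.41 over 4 and the mast cell, basophil and eosinophil list -0.02 over 2.

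Airway secretory genes had a median of -0.07 over 13 genes, with 2 above 0, and ciliated cell genes -0.12 over 11, with 2 above 0. Smooth muscle and pericyte genes had a median of 0.15 over 12. Oxidative stress and glutathione genes had a median of -0.08 over 15, and the extracellular superoxide dismutase gene Sod3 had -0.55 ± 0.22 (adjusted p = 0.242), without overlap. Leukotriene and prostaglandin genes had a median of 0.03 over 15, and cholesterol and fatty acid synthesis genes a median near 0 over 15, in which the fatty acid elongase gene Elovl6 had 2.05 ± 0.80 and is a gene that adipocytes also express.

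The lists of cardiac muscle and mesothelial genes had medians above 0. All 12 cardiac muscle genes were above 0, with a median of 0.44, and Myl2, a ventricular myosin light chain, had 407, 2809.5 and 671 in fTyS lungs, against 21.3, 30.4, 26.5 and 30.4 in control lungs (4.45 ± 0.97, adjusted p = 0.0557). The control mean of Myl2, 5.43 log2 units, was below the filter on low values at 6.49, and its mean over all arrays, 6.70, was just above the filter. Myl2 thus passed through arrays where it was high, those of fTyS among them, and its fold change depends on the pseudocount. Wt1, a transcription factor of mesothelium, had 305, 328 and 165 in fTyS lungs, against 112, 119, 89.5 and 133 in control lungs (1.08 ± 0.23, adjusted p = 0.0557), while the median of 10 mesothelial genes was 0.12. Of 14 glucocorticoid-induced genes 9 were above 0 (median 0.23), and Pdk4, a kinase that limits glucose oxidation, had 2107, 4339 and 1253 in fTyS lungs, against 785, 835, 416 and 374 in control lungs (1.96 ± 0.59), without overlap.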
